A study of Drosophila melanogaster with 6 samples.

Results

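The 8 genes described here encode enzymes that break glycosidic bonds in sugars: the amylase genes Amy-p and Amy-d and their relative Amyrel, the lysosomal alpha-mannosidase genes LManI and LManII, and the maltase genes Mal-A1, Mal-B1 and Mal-B2. They were taken by FlyBase gene ID, matched to its current symbol, from 16641 gene IDs in the deposited count files, and all 8 were found. The samples were heads of 3-day-old male Drosophila melanogaster kept at 18 C, with 3 RNA-seq libraries from the Adar5G1 mutant stock, which also carries y and sc, and 3 from the w1118 stock, the wild type of the study. Adar encodes the fly enzyme that converts adenosine to inosine in transcripts. Each genotype was 1 stock, so the mutation and the rest of the stock's genome cannot be told apart, and in whole heads a change in the number of cells of a type cannot be told apart from a change in RNA per cell.

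Alpha-amylases cut starch and glycogen into short maltose-type sugars, and maltases, which are alpha-glucosidases, release glucose from these. In the adult fly both are best known as secreted or surface enzymes of the midgut, where amylase expression falls on a sugar-rich diet. Lysosomal alpha-mannosidases remove mannose from the glycans of glycoproteins that are degraded in the lysosome.

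The Adar5G1 libraries, replicates 1, 2 and 3, held 12040951, 7189944 and 21639081 counts over genes, against 6872569, 17709643 and 12121889 in w1118 replicates 1, 2 and 3. For Adar itself 5, 1 and 19 counts were found in Adar5G1, against 2860, 6142 and 2602 counts in w1118. Ribosomal and unplaced non-coding rows took between 11.0% and 26.0% of the counts in Adar5G1 and between 4.42% and 42.5% in w1118. Levels are given as CPM, a gene's counts per 1000000 counts of its library after scaling by TMM factors, and changes as edgeR log2 fold changes of Adar5G1 over w1118 with an adjusted p of at most 0.05 as the threshold. Over all genes 8.82% of those tested rose and 5.13% fell, or 900 and 523 of 10201. The split of calls moved with the scaling, to 812 higher and 764 lower with upper-quartile factors and to 582 higher and 209 lower with total counts only. Nothing in the labels ties the libraries of a stock to separate flies or days, and the p-values cover the spread among these libraries, which may be technical.

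Of the 8 genes, 4 rose in Adar5G1 heads (Amy-p, Amy-d, LManI and LManII), 1 fell (Mal-B1), 2 did not pass the test (Mal-A1 and Mal-B2) and 1 was too low to be tested (Amyrel). Amy-p passed the filter on low counts through the 3 Adar5G1 libraries and 0 w1118 libraries. Amy-d reached its cutoff in 3 Adar5G1 and 2 w1118 libraries, and Mal-B1 in 1 Adar5G1 and 3 w1118 libraries, so their tests followed from the group in which they were high and the count of calls is a description only. The Adar5G1 and w1118 values did not overlap for 6 of the 8 genes, against 31.5% of all genes tested. Of the 6, Amy-p was at 0 in w1118 replicates 1 and 2. The 8 include Amyrel, which was not tested, and were chosen with earlier results of these data known. That comparison is thus a description only. Counting the gene itself, 23 of the 10201 genes tested had a log2 fold change at or above that of Amy-p, 70 at or above that of Amy-d, and 25 at or below that of Mal-B1. Without w1118 replicate 3 Mal-B2 also passed, which made 5 rises, and without any other single library there were 4 rises and 1 fall.

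**Figure D1:**
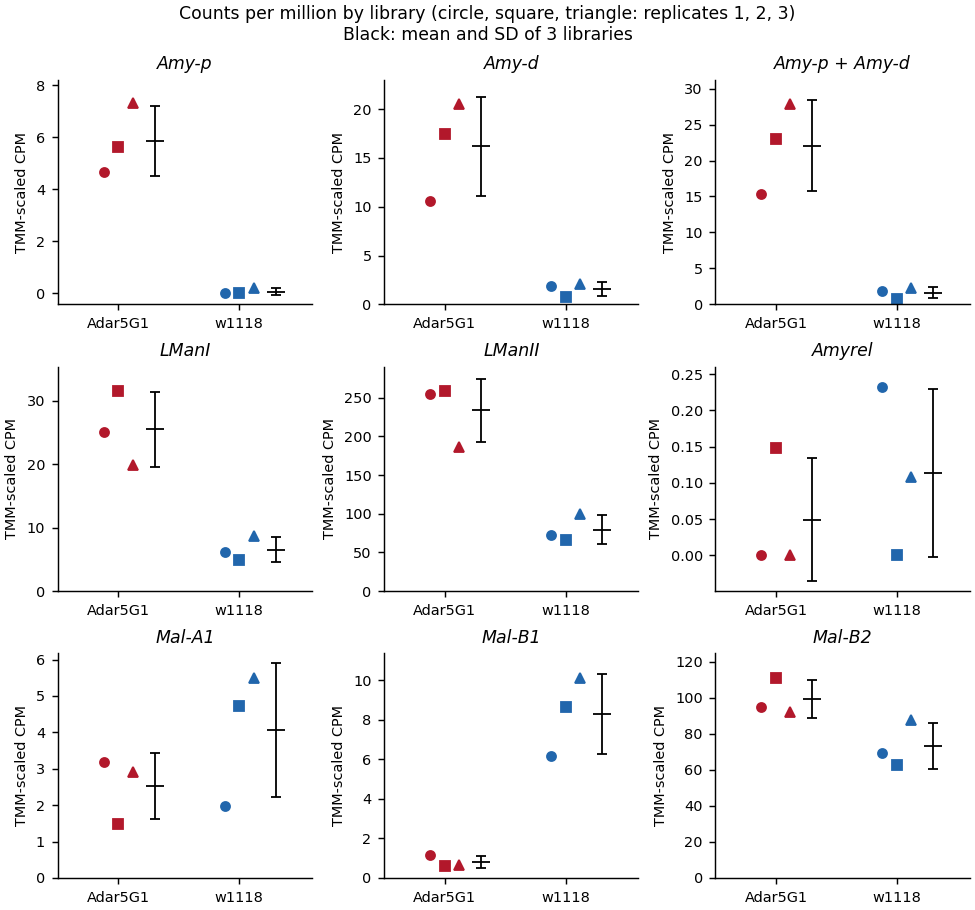
TMM-scaled CPM (vertical axes, each panel with its own scale) of the 8 genes and of the sum of Amy-p and Amy-d in each Adar5G1 and w1118 library, with the mean and SD of 3 libraries in black. All Adar5G1 points lie above all w1118 points for Amy-p, Amy-d, LManI, LManII and Mal-B2, all lie below for Mal-B1, and the groups overlap for Amyrel and Mal-A1.

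Amy-p and Amy-d are the proximal and distal copies of the alpha-amylase gene. In the dm3 coordinates of the files Amy-p (FBgn0000079) lies at 2R:13006214-13007808 on the minus strand and Amy-d (FBgn0000078) at 2R:13012267-13013874 on the plus strand. Each is a single exon block of a protein-coding gene, and 4458 bases with 1 other gene lie between them. As close copies they share sequence. The sources used here do not say how fragments that map to both were handled, so their single counts and their split are uncertain.

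Amy-d had 10.6, 17.4 and 20.5 CPM in Adar5G1 replicates 1, 2 and 3, against 1.86, 0.776 and 2.05 CPM in w1118 replicates 1, 2 and 3. The lowest mutant library was well above the highest w1118 library. The log2 fold change of Amy-d was 3.51 (edgeR adjusted p = 7.06e-04, SE 0.37), an 11.4-fold rise. Amy-p had 4.66, 5.61 and 7.33 CPM in the Adar5G1 libraries, against 0, 0 and 0.216 CPM in the w1118 libraries. It was seen in every mutant library and, in w1118, only by 2 counts in replicate 3. In w1118 replicates 1 and 2 a count of 0 allows up to 0.348 and 0.166 CPM, the value of 3 counts, which covers counting error only. The ratio of summed Amy-p counts scaled by library size was 111 (254 against 2 counts, exact 95% counting interval 30.3 to 919). The fitted log2 fold change of Amy-p, 6.50 (edgeR adjusted p = 0.000341), depends on the prior count and is no bound. It was 9.34 without w1118 replicate 3 and 5.61 without w1118 replicate 2, and the gene was called in both.

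Summed, Amy-p and Amy-d had 15.3, 23.0 and 27.9 CPM in Adar5G1 and 1.86, 0.776 and 2.27 CPM in w1118, or 22.1 ± 6.34 CPM in Adar5G1 and 1.63 ± 0.771 CPM in w1118 (SD, n = 3 each). Adar5G1 replicate 1 was the lowest mutant library and w1118 replicate 2 the lowest wild-type library for the sum. Fitted as 1 row in the table of all genes, the sum had a log2 fold change of 3.90 (edgeR adjusted p = 3.72e-04, SE 0.36), a 14.9-fold rise. It ran from 3.41 without w1118 replicate 2 to 4.24 without w1118 replicate 3 and was called without any single library. Amy-p made up 30.4%, 24.4% and 26.3% of the pair's counts in the Adar5G1 libraries, against 0%, 0% and 9.52% in the w1118 libraries. The w1118 shares rested on 16, 14 and 21 counts, and their exact 95% binomial intervals reached 20.6%, 23.2% and 30.4%. The interval of w1118 replicate 3 overlapped those of all Adar5G1 libraries. Those of w1118 replicates 1 and 2 lay below that of Adar5G1 replicate 1 (24.25% to 37.19%) but overlapped that of Adar5G1 replicate 2 (17.85% to 31.87%). All w1118 shares were below all Adar5G1 shares, with 2 of 51 counts on Amy-p in w1118 and 254 of 945 in Adar5G1. An overlap of single intervals is not a test of a difference, and fragments shared by the copies leave the split uncertain. Over libraries the share was 27.0% ± 3.11 in Adar5G1 and 3.18% ± 5.50 in w1118 (SD, n = 3 each, exact permutation test, 2-sided p = 0.1, the smallest that 3 against 3 allow).

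Amyrel, a diverged relative of the amylase genes (FBgn0020506, 2R:12538600-12540204, minus strand, 2 exon blocks), had 0, 1 and 0 counts in Adar5G1, against 2, 0 and 1 counts in w1118. The groups overlapped, and a difference was not detectable at this depth (exact permutation test of CPM, 2-sided p = 0.7).

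LManI (FBgn0032253, 2L:10452677-10457241, minus strand, 7 exon blocks) and LManII (FBgn0027611, 2L:10457658-10462472, plus strand, 11 exon blocks) lie head to head on opposite strands, 416 bases apart. LManII had 255.0, 258.9 and 186.3 CPM in Adar5G1 replicates 1, 2 and 3 and 72.7, 65.4 and 100.3 CPM in w1118 replicates 1, 2 and 3. The groups did not overlap, and replicate 3 was the lowest Adar5G1 library and the highest w1118 library. The log2 fold change of LManII was 1.56 (edgeR adjusted p = 0.00111, SE 0.18), a 2.94-fold rise. LManI had 25.1, 31.6 and 19.8 CPM in Adar5G1 and 6.16, 4.88 and 8.64 CPM in w1118. Its log2 fold change was 1.97 (edgeR adjusted p = 0.0013, SE 0.24), a 3.92-fold rise, and replicate 3 was again the lowest Adar5G1 and the highest w1118 library. Over the libraries left out in turn, the log2 fold change ran from 1.42 to 1.76 for LManII and from 1.75 to 2.21 for LManI.

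LManI took a smaller part of the pair's counts than LManII in every library. Its share was 8.94%, 10.9% and 9.62% in the Adar5G1 libraries, against 7.81%, 6.94% and 7.93% in the w1118 libraries. The groups did not overlap (9.81% ± 0.980 in Adar5G1 and 7.56% ± 0.539 in w1118, SD, n = 3 each, exact permutation test, 2-sided p = 0.1, the smallest possible). The exact 95% binomial interval of w1118 replicate 2 (5.60% to 8.48%) lay below those of Adar5G1 replicate 2 (9.53% to 12.3%) and replicate 3 (8.75% to 10.5%), and each other pair of an Adar5G1 and a w1118 library had overlapping intervals.

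**Figure D2:**
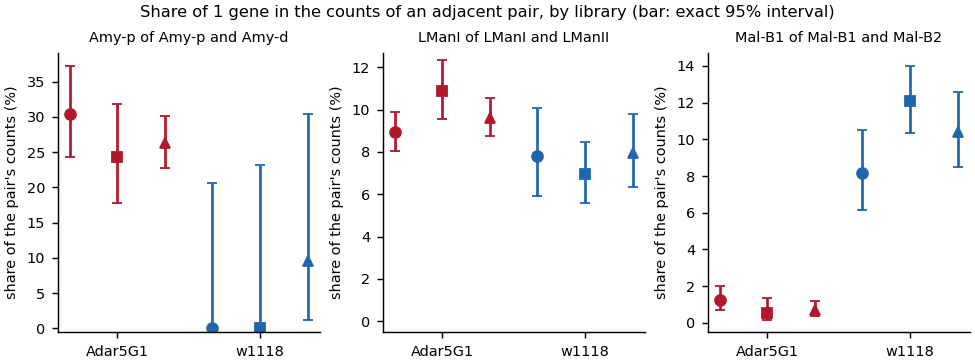
Share in percent of the counts of an adjacent gene pair that fell on 1 of its genes, by library, with exact 95% binomial intervals for counting error (circles, squares and triangles are replicates 1, 2 and 3, with Adar5G1 in red and w1118 in blue). Mal-B1 took 0.528% to 1.24% of the Mal-B1 and Mal-B2 counts in Adar5G1 and 8.14% to 12.1% in w1118. The LManI interval of w1118 replicate 2 lies below those of Adar5G1 replicates 2 and 3, and the other LManI intervals overlap between groups. For Amy-p, the interval of w1118 replicate 1 lies below those of Adar5G1 replicates 1 and 3. That of w1118 replicate 2 lies below that of Adar5G1 replicate 1, and the other Amy-p intervals overlap between groups.

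Mal-B1 (FBgn0032381, 2L:11847226-11849169, 3 exon blocks) and Mal-B2 (FBgn0032382, 2L:11849958-11852881, 6 exon blocks) follow each other on the plus strand, 788 bases apart, inside a gene on the other strand, Pde1c, with which their exons share 0 bases. Mal-B1 had 1.18, 0.591 and 0.670 CPM in Adar5G1 replicates 1, 2 and 3 and 6.16, 8.65 and 10.2 CPM in w1118 replicates 1, 2 and 3. All mutant libraries were below all w1118 libraries, on 16, 4 and 14 counts in Adar5G1 and 53, 156 and 94 counts in w1118. The log2 fold change of Mal-B1 was -3.32 (edgeR adjusted p = 3.2e-04, SE 0.30), a 9.97-fold fall. Mal-B2 had 94.6, 111.2 and 92.1 CPM in Adar5G1 and 69.5, 62.8 and 87.6 CPM in w1118. The mutant libraries were all above the w1118 libraries, with w1118 replicate 3 close to the lowest of them. The log2 fold change of 0.44 (SE 0.13) missed the threshold (edgeR adjusted p = 0.0621). Mal-B2 passed without w1118 replicate 3 (0.58, adjusted p = 0.0121), with DESeq2 (adjusted p = 0.0243) and with no filter (adjusted p = 0.0342).

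The difference between the neighbours was tested as the share of Mal-B1 in the counts of Mal-B1 and Mal-B2. That share was 1.24%, 0.528% and 0.723% in Adar5G1, against 8.14%, 12.1% and 10.4% in w1118. Means were 0.829% ± 0.365 in Adar5G1 and 10.2% ± 1.99 in w1118 (SD, n = 3 each, exact permutation test, 2-sided p = 0.1, the smallest possible), and the binomial intervals of the groups did not overlap.

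Mal-A1 (FBgn0002570, 2R:4337169-4339409, minus strand, 3 exon blocks) shares 82 exon bases with Cyp4e1, which lies on the other strand, and the authors' counting used strand. Mal-A1 had 3.18, 1.48 and 2.92 CPM in Adar5G1 and 1.97, 4.71 and 5.51 CPM in w1118. The groups overlapped, with Adar5G1 replicate 2 the lowest library and w1118 replicate 1 within the mutant range. The log2 fold change was -0.63 (edgeR adjusted p = 0.339, SE 0.38).

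**Figure D3:**
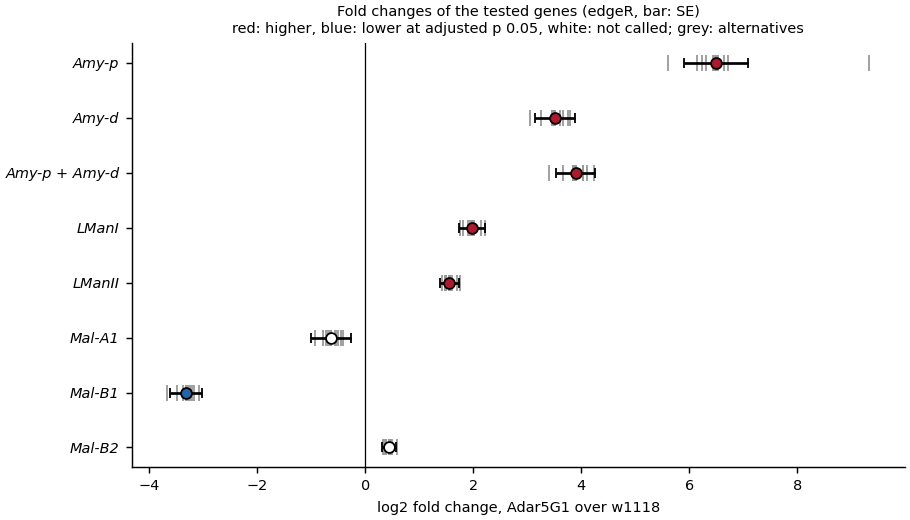
Log2 fold changes of Adar5G1 over w1118 (horizontal axis) with SE for the 7 tested genes and for the sum of Amy-p and Amy-d, with the value under each alternative as a grey tick. Amy-p, Amy-d, LManI and LManII lie above 0 and Mal-B1 below 0 in every alternative, and the tick of Amy-p at 9.34 is the fit without w1118 replicate 3.

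Levels between genes were compared as mean CPM per kilobase of exon. In Adar5G1 heads the order was LManII (64.3 ± 11.3), Mal-B2 (42.6 ± 4.46), Amy-d (10.1 ± 3.15), LManI (7.85 ± 1.82), Amy-p (3.68 ± 0.849), Mal-A1 (1.38 ± 0.502), Mal-B1 (0.449 ± 0.177) and Amyrel (0.0318 ± 0.0550; SD, n = 3). Only Amy-d and LManI overlapped among neighbours in this order. In w1118 heads the order was Mal-B2 (31.5 ± 5.51), LManII (21.9 ± 5.07), Mal-B1 (4.59 ± 1.11), Mal-A1 (2.23 ± 1.02), LManI (2.02 ± 0.589), Amy-d (0.972 ± 0.428), Amyrel (0.0732 ± 0.0750) and Amy-p (0.0451 ± 0.0782). Among w1118 libraries, Mal-B2 overlapped LManII, Mal-A1 overlapped LManI, and Amyrel overlapped Amy-p. The median over all genes tested was 9.46 CPM per kilobase in Adar5G1 and 9.17 in w1118. LManII and Mal-B2 were above the median gene in both stocks, and Amy-d lay near it in Adar5G1 and below it in w1118.

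In a list of 20 genes, relatives in the maltase and mannosidase families and 1 glycan transferase gene, Mgat1, 11 were tested, of which 1 rose and 3 fell. That was 36.4% called, against 13.9% of all genes tested, with a median log2 fold change of -0.15 against -0.00028 over all genes. This list and the later ones were chosen with earlier results of these data known, so their shares are descriptions only. The gene tobi, an alpha-glucosidase gene known to respond to insulin and adipokinetic hormone signals, had 2.29, 2.95 and 2.92 CPM in Adar5G1 and 34.0, 8.21 and 33.3 CPM in w1118. Its log2 fold change was -3.17 (edgeR adjusted p = 0.00633, SE 0.55), with w1118 replicate 2 far below the other two w1118 libraries, and it missed the threshold with limma-voom (adjusted p = 0.0717) and with robust dispersion (adjusted p = 0.051). The maltase gene Mal-A5 rose (75.7 ± 4.44 CPM in Adar5G1 and 53.5 ± 5.28 in w1118, log2 fold change 0.50, edgeR adjusted p = 0.00805). That call was lost with total counts only (adjusted p = 0.435) and with the replicate number as a block. The falls of Mgat1, a Golgi glycan transferase gene (-0.36), and of GCS2alpha, the catalytic subunit of glucosidase II (-0.46), were small. That of Mgat1 was lost without Adar5G1 replicate 1 or 3 or w1118 replicate 2 or 3, and that of GCS2alpha without Adar5G1 replicate 1 or w1118 replicate 1 or 2, and the list then had 1 fall without Adar5G1 replicate 1 or w1118 replicate 2. Of the other LMan genes, LManIII, LManIV and LManV had 0 counts in each library and LManVI had 2 counts in Adar5G1 and 1 in w1118. Mal-A2, Mal-A3, Mal-A4, Mal-A7 and Mal-A8 had at most 9 counts in either group.

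Genes listed as other digestive enzymes of the midgut were nearly absent. Of 36 genes in this list, mostly serine proteases and lysozymes, 0 passed the filter and 22 had 0 counts in all 6 libraries. The list includes Npc1b, which is also among the midgut markers. Their summed level was 0.886 to 1.25 CPM in Adar5G1 and 1.39 to 3.78 CPM in w1118. The member with the highest mean, the lysozyme gene LysP, had 0 counts in Adar5G1 and 21 counts in w1118, all in replicate 3. There it gave 2.27 of the summed 3.78 CPM. Many of these genes are close copies of each other, and their counts are uncertain for the same reason as those of Amy-p and Amy-d. Of 8 midgut markers 3 were tested and 0 were called by edgeR, DESeq2 or limma-voom. At an unadjusted edgeR p under 0.05, 1 of them (Myo31DF) was higher and 1 (Alp4) lower. GATAe had 0 counts, and Npc1b, Mur29B, mex1 and Peritrophin-15a had at most 5 counts in either group. The markers' summed level was 90.7 to 94.2 CPM in Adar5G1 and 93.6 to 98.5 CPM in w1118, nearly all of it from Alp4 and Myo31DF.

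Several markers of the fat body, the main store of fat and glycogen, were higher in Adar5G1. Of 6 tested markers 4 rose (to, Apoltp, Fbp1 and apolpp) and 0 fell by edgeR, DESeq2, limma-voom or at an unadjusted edgeR p under 0.05. By edgeR 66.7% were called, against 13.9% of all genes tested. Lsp2 (edgeR adjusted p = 0.53) and Yp3 (log2 fold change -0.151, edgeR adjusted p = 0.688) were not called. The marker fit, too low to be tested, went the other way, with 11 counts in Adar5G1 and 39 in w1118. The summed level of the 10 matched markers was 4969 to 6469 CPM in Adar5G1 and 2617 to 4121 CPM in w1118. Most of it came from apolpp (mean 4759 CPM in Adar5G1 and 2856 CPM in w1118). The part of fat body RNA in the rises of Amy-p, Amy-d, LManI and LManII and in the falls of Mal-B1 and tobi was not tested. Among markers of other cell types, 1 of 5 neuron markers rose by edgeR (Syt1). Those that fell were 3 of 8 photoreceptor markers (trpl, ninaC and inaD), 1 of 5 muscle markers (Act88F) and 1 of 4 salivary gland markers (sage). DESeq2 called 6 photoreceptor markers lower and limma-voom 5, 6 were lower at an unadjusted edgeR p under 0.05, and 0 were higher. The 8 photoreceptor markers had a median log2 fold change of -0.349. Their summed level was 20220 to 23870 CPM in Adar5G1 and 26760 to 28750 CPM in w1118. Of the muscle markers 3 were lower at an unadjusted edgeR p under 0.05. For the salivary gland DESeq2 called 0 markers lower and 1 higher (CrebA), which had an unadjusted edgeR p under 0.05, and limma-voom called 1 lower and 0 higher. Of 6 glial and 5 hemocyte markers edgeR called 0, with 1 of each (moody and NimC1) lower at an unadjusted p under 0.05, and DESeq2 called NimC1 while limma-voom called 0. Of 7 markers of the male reproductive tract 0 passed the filter. The markers of the head's own cell types, elav in neurons, ninaE in photoreceptors and repo in glia, were present in all libraries, at 321.1 ± 55.2, 8446 ± 733 and 47.5 ± 3.55 CPM in Adar5G1 and 297.8 ± 25.4, 9125 ± 627 and 50.2 ± 2.97 CPM in w1118.

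Genes for the use of glycogen and trehalose, the circulating sugar of insects, and for sugar transport were compared beside the enzymes. Of 17 tested, 5 rose and 0 fell (29.4% called, against 13.9% of all genes tested, median log2 fold change 0.37). By edgeR 1 gene, Hex-A, was lower at an unadjusted p under 0.05, and DESeq2 and limma-voom each called 1 gene lower. Tret1-2, a trehalose transporter gene, had 19.3, 19.9 and 12.1 CPM in Adar5G1 and 0.929, 0.555 and 1.4 CPM in w1118, with no overlap, and rose 18.9-fold (log2 fold change 4.24, edgeR adjusted p = 1.57e-04, SE 0.33). Tps1, which makes trehalose, had 592.3, 944.5 and 410.4 CPM in Adar5G1 and 171.1, 149.7 and 266.7 CPM in w1118 and rose 3.31-fold (edgeR adjusted p = 0.00838, or 0.0624 with robust dispersion). Tret1-1, a second trehalose transporter gene, rose 1.62-fold (edgeR adjusted p = 0.00588, or 0.161 with total counts only). The trehalase gene Treh (1.29-fold) and the glycogen branching enzyme gene AGBE (2.30-fold) also passed and are named after their values were seen. The call of Treh was lost without w1118 replicate 1 or 2, and that of AGBE without either of these or without Adar5G1 replicate 1 or 2. The rises numbered 3 without w1118 replicate 1 or 2 and 9 without Adar5G1 replicate 3.

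Genes of the sugar response, among them ones needed for the repression of amylase by sugar in the midgut, followed no single direction. Of 16 tested 4 rose and 2 fell (37.5% called, against 13.9% of all genes tested, median log2 fold change 0.17). AkhR, the receptor of adipokinetic hormone, had 50.0, 52.3 and 37.5 CPM in Adar5G1 and 8.25, 7.54 and 11.3 CPM in w1118, a 5.18-fold rise (log2 fold change 2.37, edgeR adjusted p = 1.57e-04, SE 0.18). The Activin-type ligand gene daw, known for lowering amylase expression in the midgut, had 114.6, 143.6 and 88.5 CPM in Adar5G1 and 34.3, 37.8 and 50.2 CPM in w1118. It rose 2.83-fold (edgeR adjusted p = 0.00189), and its relation to the Amy genes in these heads was not tested. Beside tobi, the gene of adipokinetic hormone itself, Akh, fell (12.5 ± 4.16 CPM in Adar5G1 and 28.7 ± 5.99 in w1118, adjusted p = 0.0126). The transcription factor genes sug (3.19-fold) and Mondo (1.23-fold) rose. Akh, sug and Mondo are named after their values were seen. The call of sug was lost without Adar5G1 replicate 1 or 2 or w1118 replicate 1 or 2, and that of Mondo without Adar5G1 replicate 2 or w1118 replicate 1 or 2. Rises in the list numbered 2 without Adar5G1 replicate 2 or w1118 replicate 1 or 2 and 7 without Adar5G1 replicate 3.

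Other lysosomal genes, mostly of hydrolases but also of membrane and sterol transport proteins such as Cln3, Npc1a, Npc2a and Npc2b, were set beside LManI and LManII. Of 19 tested 3 rose and 3 fell (31.6% called, against 13.9% of all genes tested, median log2 fold change 0.03). Hexo1, a beta-hexosaminidase gene, had 25.6, 29.5 and 21.9 CPM in Adar5G1 and 65.2, 65.6 and 67.2 CPM in w1118, a 2.60-fold fall (log2 fold change -1.38, edgeR adjusted p = 1.65e-04, SE 0.11). The lysosomal membrane protein gene Cln3 fell 2.83-fold (adjusted p = 0.00231) and the lipase gene Lip4 rose 2.69-fold (adjusted p = 4.7e-04). The other calls, named after their values were seen, were Gba1b (1.63-fold higher), CtsF (1.26-fold higher) and Npc2b (1.39-fold lower). Those of Gba1b and CtsF were each lost without Adar5G1 replicate 1 or 2 or w1118 replicate 1 or 2, leaving 1 rise, and that of Npc2b without Adar5G1 replicate 2.

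**Figure D4:**
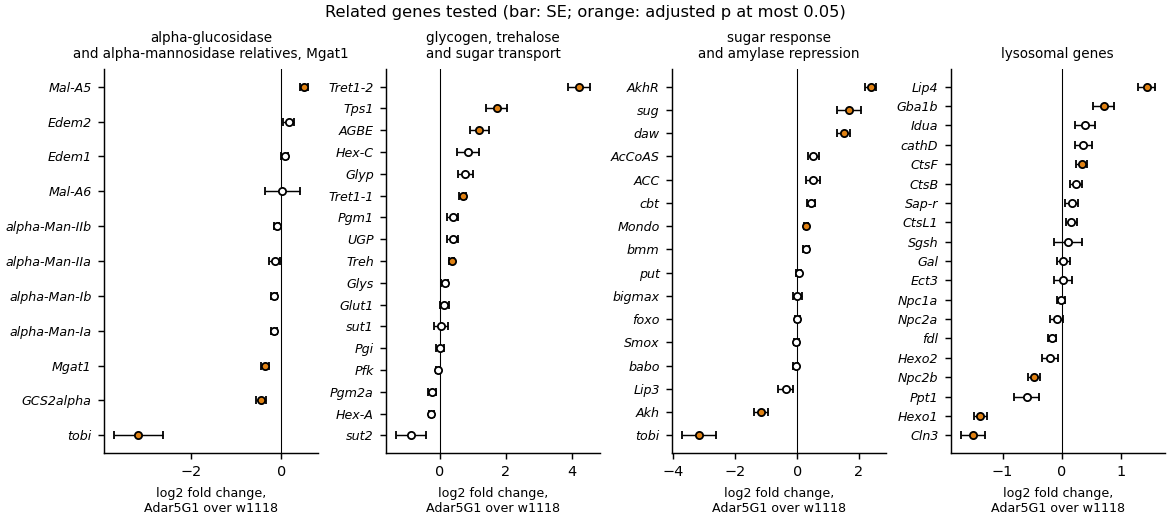
Log2 fold changes of Adar5G1 over w1118 (horizontal axes) with SE for the tested genes of 4 related lists, with calls at an adjusted p of at most 0.05 in orange. Tret1-2 at 4.24 and AkhR at 2.37 are the highest points and tobi at -3.17, which stands in 2 lists, is the lowest.

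Genes within 20 kb of the enzyme genes were compared to see whether whole regions differed between the stocks. Of 64 neighbours 34 were tested, of which 10 rose and 2 fell, or 35.3%, against 13.9% of all genes tested. The falls numbered 0 without Adar5G1 replicate 1 or w1118 replicate 1 or 2 and 1 without Adar5G1 replicate 2. Around Amy-p and Amy-d 5 of 9 tested neighbours rose. Gbp2 (FBgn0034200, 2R:13024745-13026336), which encodes a growth-blocking peptide, a cytokine-like signal, had 108.8, 99.95 and 81.9 CPM in Adar5G1 and 28.8, 16.4 and 37.9 CPM in w1118, a 3.55-fold rise (edgeR adjusted p = 0.00299). Its neighbour Gbp1 rose 1.80-fold and CG43103 2.49-fold. The gene FBtr0340134, which the files list under a transcript ID, rose 7.84-fold, and CG15611 rose 1.35-fold, a call lost without Adar5G1 replicate 2 or 3 or without any 1 of the w1118 libraries.

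Around LManI and LManII 0 of 8 tested neighbours rose by edgeR (RluA-1 was higher at an unadjusted p under 0.05, and DESeq2 called 0 and limma-voom 1) and 1 fell, TBC1D16 (1.24-fold), whose call was lost without Adar5G1 replicate 1 or w1118 replicate 1 or 2. Around Mal-A1, Cyp4e1 (1.81-fold) and Mal-A5 rose, 2 of 4 tested. Around Mal-B1 and Mal-B2 3 of 10 tested neighbours rose and 1 fell. CG31704 (2L:11840691-11841204) had 17.6, 12.8 and 11.4 CPM in Adar5G1 and 3.37, 1.44 and 2.59 CPM in w1118, a 6.05-fold rise, and CG44008 (2L:11841502-11842226) rose 3.07-fold. CG14933 rose 1.41-fold and shares 876 exon bases with CG42486 on the same strand, where a fragment was counted for both. Pde1c, the phosphodiesterase gene that spans the pair, fell 1.28-fold. The calls of CG14933 and Pde1c were lost without Adar5G1 replicate 1 or 2 or w1118 replicate 1 or 2. Around Amyrel 0 of 3 tested neighbours passed (edgeR, 0 also with DESeq2 and limma-voom, and 0 at an unadjusted p under 0.05).

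**Figure D5:**
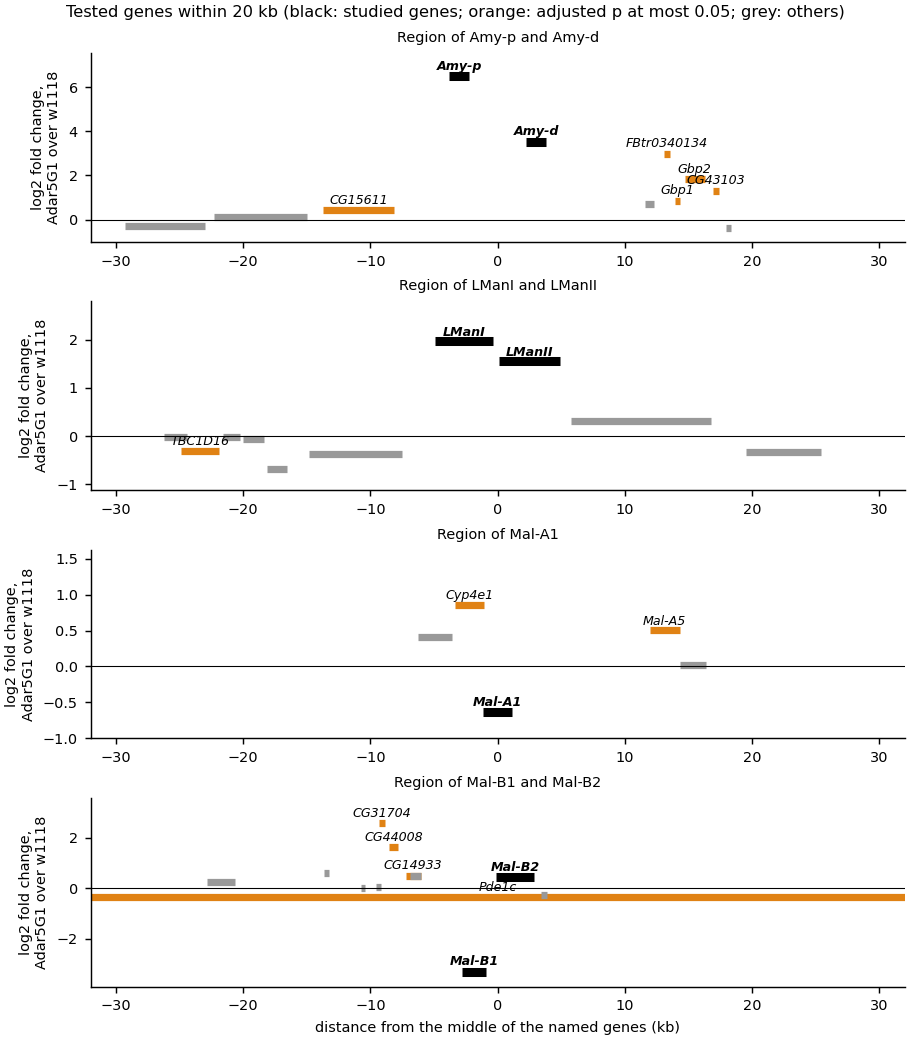
Log2 fold change of Adar5G1 over w1118 (vertical axes) for tested genes within 20 kb of the studied genes, drawn as bars from first to last exon at their distance in kb from the middle of the named genes; Pde1c runs past both edges. Mal-B1 at -3.32 lies beside Mal-B2 at 0.44 and CG31704 at 2.60, whereas LManI and LManII stand above all of their tested neighbours.

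The tested genes whose values were most like those of the enzymes were found by the root-mean-square difference of log2(CPM + 0.5), each gene centred on its own mean, over the 6 libraries. Nearest to the sum of Amy-p and Amy-d were CG43402 (difference 0.297), CG9759 (0.369), CG8665 (0.415), hpRNA:CR33940 (0.423) and Ccp84Ab (0.438). Nearest to LManII were CG33493 (0.068), CG14715 (0.085), Mct1 (0.102), CG44008 (0.109), which is also a neighbour of Mal-B1, and Mgstl (0.114). All 10 rose in Adar5G1, as the choice of targets that differ between the groups entails.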

How the data were processed

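RNA-seq libraries were made from total RNA of fly heads after removal of ribosomal RNA, per the labels' protocols, and read in pairs of 75 bases; the molecule field of the labels says polyA RNA. The authors' deposited counts are whole fragments per gene, from featureCounts 1.4.5-p1 with reverse strandedness, exons summed by gene on FlyBase release 5.53, and a fragment on several genes counted for each, per the file headers. The option for multi-mapping fragments was not set there, and how the aligner placed fragments that fit close copies equally well is not stated, so the counts of such copies are uncertain. TopHat and the dm3 (BDGP5) build are named in the submitters' processing notes, with the version of TopHat not given in the sources used. Coordinates are those of the files, 1-based.

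Of 16641 gene IDs 15924 matched a current symbol. A row with no gene ID, 0.369% to 0.633% of a library, was left out. Libraries held 6872569 to 21639081 counts over genes. The counts were tested in edgeR 4.0.16 (R 4.3.3) with filterByExpr at a minimum count of 10, TMM factors, the quasi-likelihood F test on group and Benjamini-Hochberg adjustment over the 10201 genes tested. The SE of a log2 fold change was derived from the F value and is approximate. Amy-p and Amy-d were also refitted as 1 summed row in the whole table. DESeq2 1.42.0 and limma-voom (limma 3.58.1), other scalings and filters, a replicate block and leaving out each library were the alternatives, and the fits were tested on simulated data. Shares have exact Clopper-Pearson intervals at 95%, and single values an exact permutation test in scipy 1.17.1. Intervals and the 3-count floor cover counting error only, since fragments carried no molecular identifiers.

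The 8 genes and all lists were chosen with earlier results of these data known. Of 118 pathway names 112 matched a symbol, as did 59 of 61 marker names. Named genes were the 8, up to 3 called genes of smallest p per pathway list, all called genes within 20 kb, and the 5 genes nearest in pattern to the Amy-p and Amy-d sum and to LManII. No pair of libraries of a stock agreed within sampling noise (chi-square per degree of freedom of at least 30.6).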

Additional observations from a re-analysis of the deposited data

How the results depend on the processing

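The calls of Amy-p, Amy-d, LManI, LManII, Mal-B1 and the Amy-p and Amy-d sum kept their direction and side of the threshold under every alternative run for them. These numbered 16 each and 18 for the sum. The 18 include the separate rows of Amy-p and Amy-d from the main fit, which are not refits of the sum. The log2 fold changes of the single genes ran from 5.61 to 9.34 (Amy-p), 3.05 to 3.80 (Amy-d), 1.75 to 2.21 (LManI), 1.42 to 1.76 (LManII) and -3.67 to -3.09 (Mal-B1). Mal-A1 was called in 0 of 16 and Mal-B2 in 3 of 16. Over all genes, 900 rose and 523 fell; these were 582 and 209 with total counts only, 456 and 248 at an adjusted p of 0.01, and 545 to 1024 and 331 to 515 with 1 library left out. With the replicate number as a block they were 484 and 278, and Mal-A5 missed the threshold (adjusted p = 0.056). Deviations of same-numbered libraries correlated at 0.112, -0.182 and -0.287, and of the Adar5G1 libraries only replicate 1 correlated best with its own number. With 3 libraries per stock this cannot decide whether same-numbered libraries were handled together. Rises against 5 in the glycogen, trehalose and transport list numbered 2 to 6 in the settings with all libraries, against 4 in the sugar response list 2 to 6, and against 3 among lysosomal genes 1 to 3. Falls against 3 in the list of enzyme relatives and Mgat1 numbered 1 to 3, and against 2 among neighbours within 20 kb 0 to 2. The cause of these shifts was not tested. No result named here reversed. Depth limits Amyrel. The split of Amy-p and Amy-d in w1118 rested on few counts per library, and fragments shared by close copies limit that split and the levels of both genes.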
